A study of Mus musculus with 6 samples.

Results

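The growth hormone, STAT5 and IGF1 axis of the liver was followed through 10 genes. They are the receptors Ghr and Prlr, the transcription factors Stat5a and Stat5b, the feedback regulators Socs2 and Cish, the circulating outputs Igf1 and Igfals, and the repressors Bcl6 and Cux2. They were chosen with earlier results of these data known. All 10 were taken by gene symbol and were found among the 32212 rows of the count table. Livers came from male mice on a C57BL/6 background, aged 2 yr and fed normal chow. One group was WT. The other was CgA-KO, a whole-body knockout of chromogranin A, a prohormone of neuroendocrine cells that is encoded by Chga. Each genotype had 3 livers with 1 poly(A)-selected RNA library each. The labels and methods used here do not give the hour at which the livers were taken or whether the mice had been fed.

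Growth hormone from the pituitary binds its receptor on hepatocytes and activates the kinase JAK2, which phosphorylates STAT5. STAT5 then enters the nucleus and switches on Igf1 and Igfals, whose products circulate together with an IGF-binding protein, and also Socs2 and Cish, whose products damp the receptor. In male mice growth hormone arrives in pulses and in females it is nearly continuous, and this difference sets the sex bias of many liver genes. Bcl6 is a male-biased repressor that competes with STAT5 for DNA, while Cux2 is a female-biased repressor of male-biased genes.

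STAT5 dimers recognise the palindrome TTCNNNGAA, where N is any base. The motif reads the same on both strands, so 1 search covered both. It was searched in the RefSeq promoter windows of GRCm38.p6, each of 300 bases that run from 250 before a start site to 50 after it. Of the 10 genes, 9 had at least 1 window, 18 in all, and Socs2 had none. The motif occurred in 6 of the 18 windows, which belonged to Cish, Bcl6, Igfals and Prlr. Over all genes, 8.30% of 32851 windows held it and 0.457% held at least 2 matches. The Cish window had 2 matches, whose first bases lay at +1 and +12 from the start site. One of the 2 Bcl6 windows had 3 matches, at -168, -122 and -88, and 0.0335% of all windows had as many. The Igfals windows had 1 match each in 2 of 3, at -236 and -58 from their own start sites, and the Prlr match lay at -110 of 1 of its 3 start sites. A match is a run of letters and does not show binding. Below are the Cish window at chr9:107296409-107296683 on the plus strand, the Bcl6 window at chr16:23981259-23981533 on the minus strand and the Igfals window at chr17:24877981-24878255 on the plus strand. They are shown because they hold the matches of a feedback gene, a repressor and an output. Each is printed 5′ to 3′ to 25 bases past the start site, and capitals mark the matches.
Cish: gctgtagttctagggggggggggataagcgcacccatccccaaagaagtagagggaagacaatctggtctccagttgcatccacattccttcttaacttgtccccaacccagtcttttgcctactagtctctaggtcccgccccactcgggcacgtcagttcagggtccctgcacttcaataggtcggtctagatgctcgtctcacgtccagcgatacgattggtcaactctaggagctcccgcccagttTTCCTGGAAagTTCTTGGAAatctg
Bcl6: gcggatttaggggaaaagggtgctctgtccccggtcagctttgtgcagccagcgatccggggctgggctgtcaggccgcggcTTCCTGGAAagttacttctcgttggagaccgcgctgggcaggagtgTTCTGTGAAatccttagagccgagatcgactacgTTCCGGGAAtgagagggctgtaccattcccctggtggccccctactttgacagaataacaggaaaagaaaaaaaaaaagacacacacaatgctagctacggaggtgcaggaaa
Igfals: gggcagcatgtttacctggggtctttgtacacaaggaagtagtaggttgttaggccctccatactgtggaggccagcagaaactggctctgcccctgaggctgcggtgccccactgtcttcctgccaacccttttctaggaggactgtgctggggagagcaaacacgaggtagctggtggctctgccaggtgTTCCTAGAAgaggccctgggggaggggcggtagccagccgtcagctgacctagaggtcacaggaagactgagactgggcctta

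The libraries held between 10558616 and 31087453 counts, and WT replicate 1 was the shallowest. Chga had 0 counts in all 6 libraries, so it could not check the genotype labels. The tissue label fitted the hepatocyte markers, of which 9 of 10 listed genes were in the table under that symbol. Their summed level ran from 61017 to 100800 CPM in WT and from 49967 to 84458 in CgA-KO. CPM, here and below, are counts per 1000000, after scaling with TMM factors (trimmed mean of M values). Markers of several other cell types differed between the genotypes. Over all genes tested, 8.60% were called higher and 3.84% lower in CgA-KO. All 10 Kupffer cell markers had a higher fitted level in CgA-KO, 9 of them called, and their sum was 121 to 295 CPM in WT and 1359 to 1800 in CgA-KO. The marker not called, Marco, was at 1.34, 4.47 and 14.3 CPM in WT and at 0.139, 57.4 and 1.08 in CgA-KO. Its higher fitted level rested on CgA-KO replicate 2, and the other CgA-KO livers were below every WT liver. The 10 T and NK cell markers found in the table had sums of 4.55 to 19.6 CPM in WT and 54.1 to 155 in CgA-KO. Of these, 5 were called higher, but 1 of the 10 reached the filter's level of 0.436 CPM in every WT library, so the direction of the others was largely set by passing the filter. Of 10 stellate cell markers 4 rose, with sums of 252 to 306 CPM in WT and 435 to 669 in CgA-KO. Endothelial markers went both ways, 2 called higher and 1 lower of 9, with sums of 153 to 207 and 173 to 251 CPM. Of 7 B cell markers edgeR called 0, with 1 at an unadjusted p under 0.05 and 1 called by DESeq2, and their sums overlapped at 20.97 to 120 CPM and 46.4 to 126 CPM. None of the listed markers in the table was at 0 in every library. Among 16 clock genes, 4 rose and 7 fell, and 14 of the 16 reached the filter's level in every WT library. Arntl, a core activator of the clock that was picked after its values were seen, was at 0.553 to 1.25 CPM in WT and at 15.03 to 19.5 in CgA-KO, without overlap. With 13 counts in WT replicate 2, Arntl was under the filter's level there before TMM scaling. It therefore needed CgA-KO livers to pass the filter. The part of these cells, and of the hour of collection, in the values below was not tested. In bulk tissue, fewer cells of a type and less RNA per cell cannot be told apart.

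Of the axis, Cux2 passed the test and the other 9 genes did not, a share near that of all genes. All 10 genes passed the filter on low counts. At an adjusted p under 0.05 in edgeR's quasi-likelihood test, which is what a call means here, 1 of the 10 was called. This was Cux2, higher in CgA-KO. The background was 12.4% of the 13867 genes tested, made up of the 8.60% called higher and 3.84% called lower. At an unadjusted p under 0.05 the count was 5 of 10. The share of all genes at that threshold is not given here. This count and the other unadjusted counts in the text therefore have no background beside them and are not read as results. The libraries of the 2 genotypes did not overlap in 3 of the 10, Ghr, Stat5b and Cux2, where 33.6% of all genes tested were so separated. The median log2 fold change was 0.10 over the 10 genes and -0.01 over all genes, and 5 were fitted higher and 5 lower. Scaling by library size alone, without TMM, moved the median of all genes to 0.26. In that fit Stat5b was also called (adjusted p = 0.0366), and the calls over all genes were 1293 higher and 200 lower, in place of 1193 and 533. With 1 library left out, the count of the 10 called was 0 without WT replicate 2 (4 at an unadjusted p under 0.05), 0 without WT replicate 3 (3 at an unadjusted p under 0.05) and 2 without CgA-KO replicate 2. DESeq2 called 2 of the 10 and limma-voom 0.

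**Figure D1:**
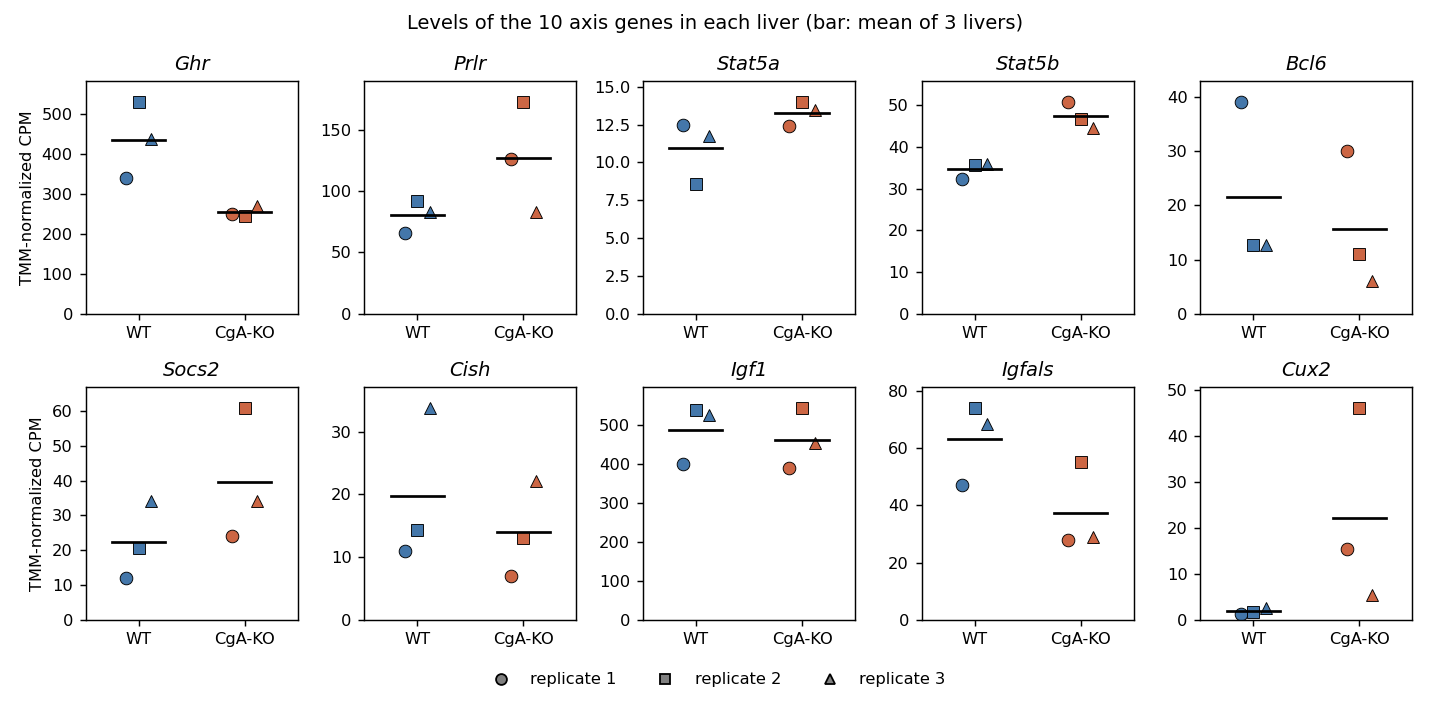
Level of each of the 10 axis genes in TMM-normalized CPM (y axis from 0, one scale per panel) in WT and CgA-KO livers, with 1 point per liver, shaped by replicate, and a bar at the mean of 3 livers. Ghr, Stat5b and Cux2 separate the genotypes, while Igf1 covers nearly the same range in both.

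The receptors had fitted changes of opposite sign, and edgeR called neither. Ghr, the growth hormone receptor, lies on chromosome 15 of GRCm38 from 3317760 to 3583492. In WT replicates 1, 2 and 3 it stood at 339, 529 and 436 CPM. The CgA-KO replicates, in the same order, were at 250.2, 245 and 270.02 CPM. Every CgA-KO liver lay below every WT liver, and the CgA-KO values were close together (255 ± 13.4 against 435 ± 95.1 CPM, SD, n = 3 each). The log2 fold change was -0.77 (standard error 0.232, adjusted p = 0.0620). DESeq2 did call it (-0.79, adjusted p = 0.00678), and so did edgeR without WT replicate 1, the lowest WT liver (-0.88, adjusted p = 0.0324). Over all alternatives the adjusted p ran from 0.00678 to 0.192. The gene also encodes the growth hormone binding protein, which is not separated from the receptor in a gene-level count.

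Prlr, the prolactin receptor, is a close relative of Ghr that can also activate STAT5. It lies on the same chromosome from 10177238 to 10349180. It was at 66.3, 91.7 and 83.1 CPM in WT and at 126, 173 and 83.3 in CgA-KO. CgA-KO replicate 3 sat inside the WT range and the other CgA-KO livers sat above it. The log2 fold change was 0.67 (standard error 0.279, adjusted p = 0.154), and leaving out each library in turn gave adjusted p-values from 0.0550 to 0.332. The longest coding transcripts of Ghr and Prlr shared 0 words of 31 bases, so no such stretch could be counted for both.

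Both Stat5 genes had a higher fitted level in CgA-KO, and neither was called. Stat5b, the main hepatic form, lies on chromosome 11 from 100780731 to 100850724. It was at 32.3, 35.7 and 36.0 CPM in WT and at 50.8, 46.7 and 44.6 in CgA-KO. The groups did not overlap, and the spread within each was small (34.7 ± 2.05 and 47.4 ± 3.15 CPM). Its log2 fold change was 0.45 (standard error 0.156, adjusted p = 0.0949). Stat5a starts 8627 bases away on the same chromosome, facing the other way, and runs from 100859351 to 100885169. It was at 12.45, 8.59 and 11.7 CPM in WT and at 12.44, 14.0 and 13.4 in CgA-KO, so the groups touched (log2 fold change 0.29, standard error 0.210, adjusted p = 0.405). Of the 31-base words of the longest coding transcript of Stat5a, 21.7% also occur in that of Stat5b, and quantification could have split reads there. The ratio of Stat5b to Stat5a counts was 3.27 ± 0.801 in WT and 3.58 ± 0.436 in CgA-KO, with overlap.

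The 2 feedback regulators had fitted changes of opposite sign, and neither was called. Socs2, which encodes a suppressor of cytokine signalling that limits the growth hormone receptor, lies on chromosome 10 from 95385362 to 95417180. It was at 12.1, 20.8 and 34.1 CPM in WT and at 24.1, 60.7 and 33.98 in CgA-KO. The groups overlapped (log2 fold change 0.82, standard error 0.414, adjusted p = 0.228). Cish, another suppressor of this family and a classical immediate STAT5 target, lies on chromosome 9 from 107296026 to 107302784, and its promoter window with paired motif matches is printed above. It was at 11.02, 14.3 and 33.7 CPM in WT and at 7.06, 13.0 and 22.1 in CgA-KO. Here too the groups overlapped, and WT replicate 3 was the highest of the 6. The log2 fold change was -0.49 (standard error 0.484, adjusted p = 0.547), and without WT replicate 3 it was 0.14.

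Within single libraries the pair separated the genotypes, although neither level did. The ratio of Cish to Socs2 counts was 0.911, 0.691 and 0.988 in WT replicates 1, 2 and 3. In CgA-KO it was 0.293, 0.215 and 0.652. Every CgA-KO library was below every WT library, with a log2 difference of -1.31 (exact two-sided permutation test, p = 0.1, the smallest that 3 against 3 can give). Such a ratio does not depend on how the libraries are scaled. A total of 5 ratios were computed, all chosen after the values were seen, so none of these p-values is independent evidence, and a Benjamini-Hochberg adjustment over them cannot bring one under 0.1. CgA-KO replicate 3 lay nearest to WT, and without it the difference was -1.77.

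Igf1, the endocrine growth factor that is the best known output of the axis, differed between the genotype means by less than the spread within either. It lies on chromosome 10 from 87858265 to 87937042. It was at 400.2, 539.96 and 526 CPM in WT and at 389, 543 and 455 in CgA-KO. The ranges almost coincided (489 ± 76.9 and 463 ± 77.3 CPM). The fitted log2 fold change was -0.08 (standard error 0.237, adjusted p = 0.862). The sign was not stable, at 0.21 with library size alone and 0.065 without CgA-KO replicate 1.

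Igfals encodes the acid-labile subunit, a liver protein that keeps IGF1 in a long-lived complex in blood. It lies on chromosome 17 from 24865997 to 24882010. Igfals was at 47.2, 73.9 and 68.3 CPM in WT and 27.9, 55.1 and 28.9 in CgA-KO. CgA-KO replicate 2 reached into the WT range and the other CgA-KO livers stayed below it. The log2 fold change was -0.76 (standard error 0.2995, adjusted p = 0.132), and it was -1.12 without CgA-KO replicate 2, where edgeR called it (adjusted p = 0.0380). Set against Igf1 in the same library, Igfals counts were 0.118, 0.137 and 0.130 of the Igf1 counts in WT and 0.0715, 0.101 and 0.0634 in CgA-KO. These ratios did not overlap (log2 difference -0.73, exact two-sided permutation test, p = 0.1). The ratio of Igf1 to Ghr counts went the other way, from 1.14 ± 0.1005 in WT to 1.82 ± 0.353 in CgA-KO, also without overlap (log2 difference 0.67, exact two-sided permutation test, p = 0.1). Ghr alone already separated the genotypes, at a log2 fold change of -0.77 against -0.08 for Igf1, so this ratio is not a separate result.

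**Figure D2:**
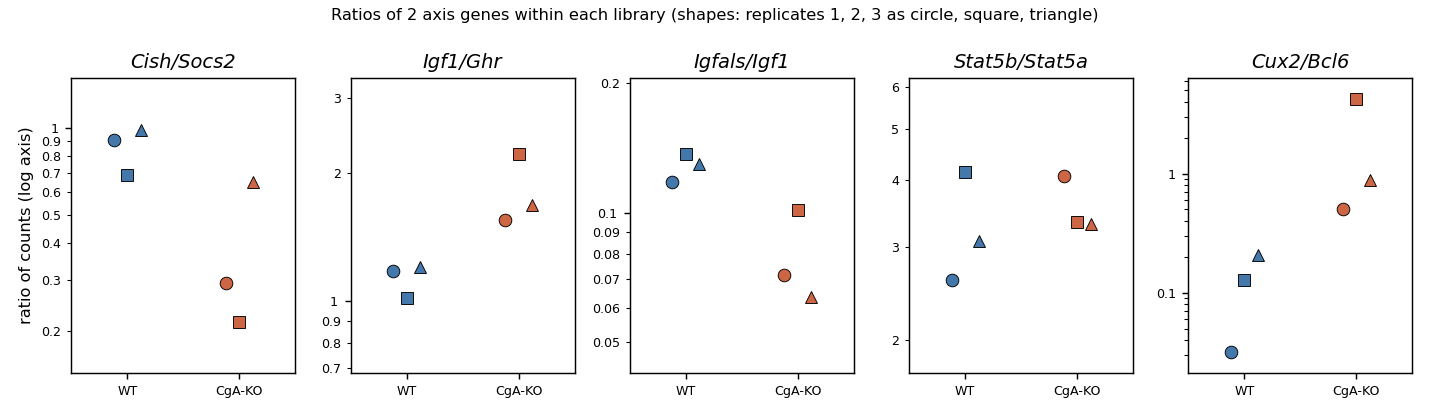
Ratio of the counts of 2 axis genes within each library (log axis) for WT and CgA-KO livers, 1 point per liver. Cish/Socs2 and Igfals/Igf1 are lower and Igf1/Ghr and Cux2/Bcl6 higher in every CgA-KO library, while Stat5b/Stat5a overlaps.

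Cux2 had the largest log2 fold change of the 10 genes. This homeobox repressor, which is normally female-biased in mouse liver, lies on chromosome 5 from 121856366 to 122050102. It was at 1.25, 1.62 and 2.63 CPM in WT, from 14, 38 and 62 counts. In CgA-KO it was at 15.3, 46.0 and 5.33 CPM, from 330, 1452 and 119 counts. Every CgA-KO liver was above every WT liver, but the 3 CgA-KO livers themselves spread widely (22.2 ± 21.2 against 1.83 ± 0.711 CPM). Cux2 rose by a log2 fold change of 3.57 (standard error 0.720, adjusted p = 0.0164), or 11.9-fold. The direction was the same under every alternative run, but limma-voom did not call it (adjusted p = 0.0820), nor did edgeR without WT replicate 1 (0.0835), WT replicate 2 (0.129) or WT replicate 3 (0.105), or with a looser filter on low counts (0.114). Without CgA-KO replicate 2, the highest liver, the log2 fold change was 2.498 (adjusted p = 0.0394). DESeq2 gave an adjusted p of 3.86e-07, and over all alternatives it reached at most 0.129. The 3 CgA-KO libraries ranked the same way in Cux2 and in the summed markers of T and NK cells, which were 58.6, 155 and 54.1 CPM in CgA-KO replicates 1, 2 and 3. The summed hepatocyte, Kupffer cell and stellate cell markers had that order too, and the part of these cells in the Cux2 values was not tested.

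Bcl6, the zinc-finger repressor at the other side of the sex bias, was not called. It lies on chromosome 16 from 23965052 to 23988852. The 6 values of Bcl6 were 39.1, 12.7 and 12.7 CPM in WT and 30.1, 11.04 and 6.01 in CgA-KO. Replicate 1 was far above the others in both genotypes, and the groups overlapped. The log2 fold change of -0.44 had a standard error of 0.611 (adjusted p = 0.681), and it turned to 0.34 without WT replicate 1. The ratio of Cux2 to Bcl6 counts was 0.0321 to 0.207 in WT and 0.508 to 4.17 in CgA-KO, without overlap (log2 difference 3.71, exact two-sided permutation test, p = 0.1). The difference was 2.83 without CgA-KO replicate 2, 2.93 without WT replicate 1 and 4.35 without CgA-KO replicate 1. Cux2 alone already separated the genotypes, so this ratio is not a separate result.

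The other genes of the pathway were described by lists. Of 24 partners in receptor signalling and its brakes, all tested, 6 rose in CgA-KO and 0 fell, with a median log2 fold change of 0.33. The background for higher calls is the 8.60% given above. Stat4 and Socs1 did not reach the filter's level in every WT library and passed through CgA-KO, which leaves 5 called of the other 22. The genes were chosen with results of these data known. Jak2, the kinase bound to the growth hormone receptor, was at 11.9, 17.1 and 16.1 CPM in WT and 22.0, 21.7 and 18.0 in CgA-KO. It did not overlap between genotypes but was not called (log2 fold change 0.45, adjusted p = 0.178). With library size alone edgeR did call Jak2 (adjusted p = 0.0482). Stat3, a transcription factor of the cytokine response, had a log2 fold change of 0.34 (adjusted p = 0.260). Stat4, a factor of T and NK cells, rose by 4.03 on the log2 scale (adjusted p = 0.0253) from a low WT level of 0.254 to 0.537 CPM, with 6 counts in each WT library. The rise of Stat4 was 2.46 without CgA-KO replicate 2, whose 12.5 CPM stood far above the 2.46 and 1.12 CPM of the other CgA-KO livers, and the call of Stat4 was lost there (adjusted p = 0.0589). It was also lost without WT replicate 1, 2 or 3 (0.0564, 0.162 and 0.162).

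The suppressors and phosphatases among the 24 went both ways in their fitted values. Socs4, singled out after its values were seen, was lower in every CgA-KO library but not called (log2 fold change -0.45, adjusted p = 0.129), and Socs5, Socs6, Socs7, Ptpn2 and Ptpn11 were not called. Socs3, the suppressor induced by interleukin-6 and STAT3, was at 10.6, 7.66 and 9.74 CPM in WT and at 15.3, 34.6 and 16.8 in CgA-KO, and rose without overlap (log2 fold change 1.26, adjusted p = 0.0380). Socs1, the suppressor of interferon signalling, had a fitted log2 fold change of 2.24 at very low levels and was not called (adjusted p = 0.107). Without CgA-KO replicate 2 that value was 1.08. Among the phosphatases, Ptpn1, which dephosphorylates JAK2, rose from 22.3 ± 5.15 to 49.02 ± 13.5 CPM (log2 fold change 1.14, adjusted p = 0.0203). Ptpn6, a phosphatase of blood cells, rose from 19.2 ± 10.6 to 56.1 ± 10.8 CPM (log2 fold change 1.56, adjusted p = 0.0225). Grb2, an adaptor that links receptors to the Ras pathway, rose by 0.70 on the log2 scale (adjusted p = 0.0373). The summed Kupffer cell markers and the summed T and NK cell markers were higher in the same libraries. For single T and NK cell markers the limit set by the filter, given above, applies. The part of these cells in these changes was not tested. With 1 library left out, edgeR called 0 of the 24 without WT replicate 2, WT replicate 3 or CgA-KO replicate 2, with 11, 6 and 6 at an unadjusted p under 0.05, while DESeq2 called 6 on all libraries.

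**Figure D3:**
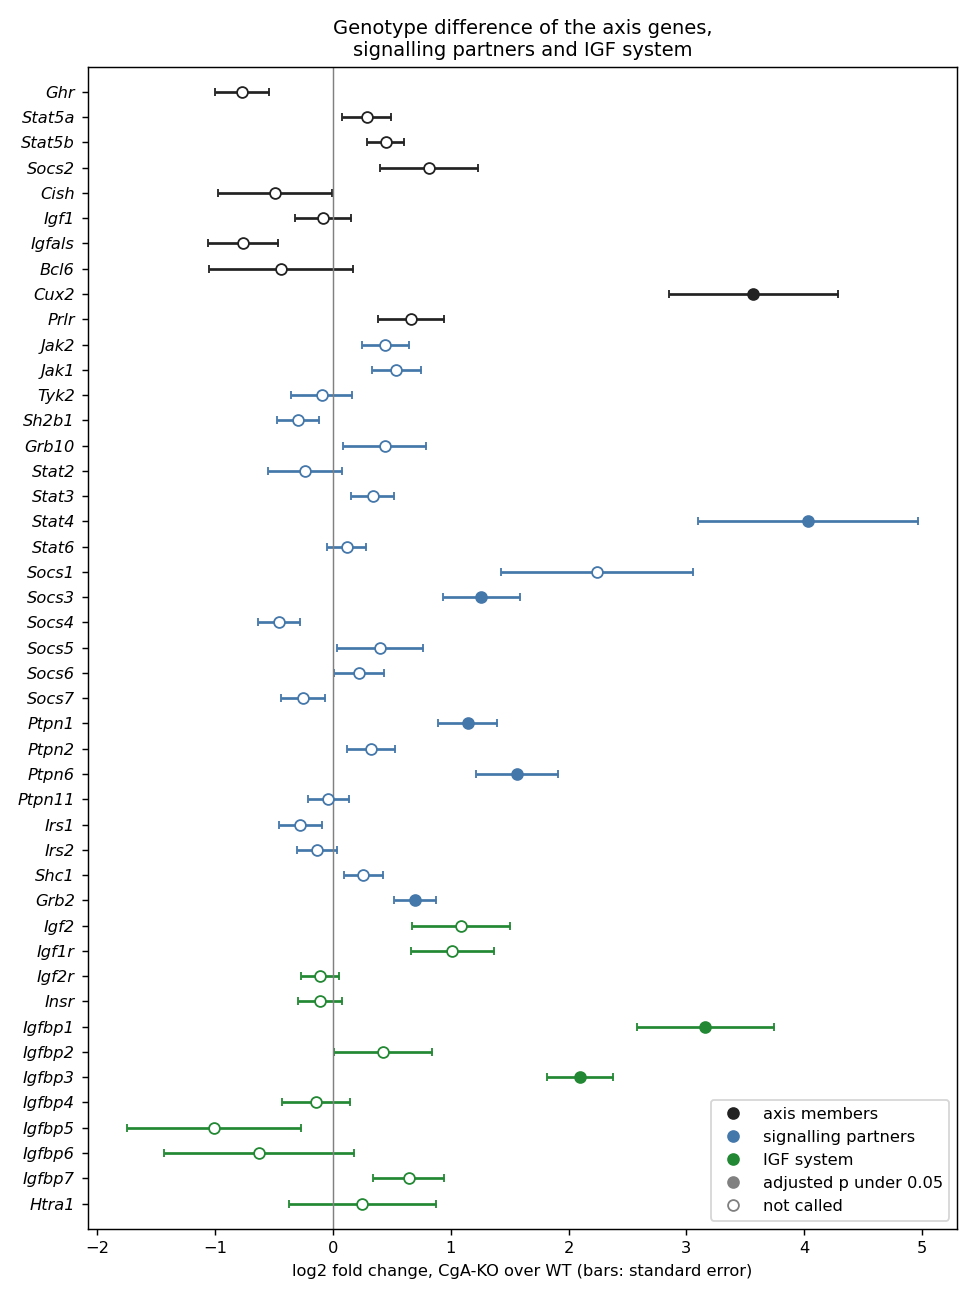
Log2 fold change of CgA-KO over WT (x axis) with its standard error for the axis genes, signalling partners and the tested genes of the IGF system, one gene per line. Filled points have an adjusted p under 0.05 in edgeR's quasi-likelihood test; they are Cux2, 5 signalling partners drawn, Igfbp1 and Igfbp3, all to the right of 0.

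In the IGF system, 12 of 16 listed genes were tested, and 2 rose while 0 fell, where 8.60% of all genes were called higher and 3.84% lower (edgeR, with 4 of the 12 at an unadjusted p under 0.05 and 2 called by DESeq2). Both were binding proteins. Igfbp1, a hepatocyte protein that rises with fasting and falls with insulin, was at 19.1, 7.32 and 6.40 CPM in WT and at 37.7, 158 and 91.7 in CgA-KO. All CgA-KO livers were above all WT livers (log2 fold change 3.16, standard error 0.582, adjusted p = 0.0125). Without WT replicate 2 or WT replicate 3 the call was lost (adjusted p = 0.103 and 0.0999), and without WT replicate 1 the log2 fold change was 3.84. Igfbp3, the main carrier of IGF1 in blood, was at 14.2, 10.5 and 8.17 CPM in WT and at 52.9, 55.2 and 31.3 in CgA-KO. It rose by a log2 fold change of 2.10 (standard error 0.282, adjusted p = 0.00484) and remained called with each library left out, at 1.92 to 2.35. In liver Igfbp3 is made mostly outside hepatocytes. Of the markers given above, the sums for Kupffer and stellate cells were higher in the same libraries. Of the stellate cell markers 4 of 10 were called, and endothelial markers went both ways. The part of these cells in Igfbp3 was not tested.

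Igfbp2, a binding protein that hepatocytes secrete, was at 251.5, 440.3 and 369 CPM in WT and at 305, 814 and 306 in CgA-KO. A single liver, CgA-KO replicate 2, made the mean higher, and without it the fitted log2 fold change was -0.17 in place of 0.43 (adjusted p = 0.540 with all libraries). Igf1r, the receptor for IGF1, which adult hepatocytes hardly express, was at 2.93 ± 0.759 and 5.89 ± 2.16 CPM (log2 fold change 1.01, adjusted p = 0.0951). Igf2, largely silent in adult mouse liver, was at 0.553 to 0.896 CPM in WT and 1.33 to 1.58 in CgA-KO (adjusted p = 0.124). The pituitary and hypothalamic hormone genes were at or near the floor. Of 7 such genes, 6 had 0 counts in every library, Gh and Prl among them, and a count of 0 allows up to 0.269 CPM in the shallowest library, for counting error only.

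Of 14 transcription factors that act beside STAT5 or on sex bias, 2 fell and 0 rose, against 3.84% of all genes called lower and 8.60% higher (edgeR, with 4 at an unadjusted p under 0.05 and 4 called by DESeq2). Foxa1, a pioneer factor of hepatocytes, was at 24.0, 19.0 and 29.6 CPM in WT and at 9.42, 10.1 and 11.3 in CgA-KO, without overlap. It fell by 1.23 on the log2 scale (standard error 0.213, adjusted p = 0.0104), with adjusted p-values of 0.0549 without WT replicate 3 and 0.0504 without CgA-KO replicate 1. With library size alone Foxa1 was not called either (-0.98, adjusted p = 0.0570). Hnf4a, the factor that governs hepatocyte identity, was at 505 ± 119 CPM in WT and 508 ± 15.8 in CgA-KO (log2 fold change 0.01, adjusted p = 0.990), with a sign that changed between scalings. Onecut1, which is itself induced by growth hormone, was at 15.6, 17.1 and 81.5 CPM in WT and at 11.5, 7.42 and 17.8 in CgA-KO. Its log2 fold change of -1.65 was not called by edgeR (adjusted p = 0.119) but was by DESeq2 (adjusted p = 0.0267). It rested on WT replicate 3, without which it was -0.43 (adjusted p = 0.535).

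Genes known to follow the sex pattern of growth hormone were taken in 2 lists, and in each more genes were not called than called. Both lists were chosen with earlier results of these data known. Of 18 male-biased genes, all tested, 6 fell in CgA-KO and 0 rose, against a background of 3.84% called lower, with a median log2 fold change of -0.66. Hsd3b5, a steroid-metabolizing enzyme, was at 19.6, 124 and 104 CPM in WT and at 0.279, 0.603 and 0.762 in CgA-KO. The CgA-KO values rest on 6, 19 and 17 counts. CgA-KO replicate 1 was under the filter's level of 0.436 CPM, so Hsd3b5 needed WT livers to pass the filter. It fell by 7.21 on the log2 scale (standard error 0.759, adjusted p = 0.00296). Slco1a1, an organic anion transporter, fell by 3.47 (standard error 0.505, adjusted p = 0.00583), from 206 ± 70.7 to 18.6 ± 10.5 CPM. Nudt7, a peroxisomal hydrolase, fell by 2.37 (standard error 0.502, adjusted p = 0.0189), and by 3.09 without CgA-KO replicate 3. Without WT replicate 2, WT replicate 3, CgA-KO replicate 1 or CgA-KO replicate 2 the count of the 18 called was 3, and Nudt7 was not called in those 4 fits (adjusted p from 0.0589 to 0.106).

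Of 22 female-biased genes, 15 were tested, and 6 of these rose while 0 fell, against 8.60% of all genes called higher, with a median log2 fold change of 1.65. Only 10 of the 15 reached the filter's level of 0.436 CPM in every WT library, so the rest passed through CgA-KO livers or through some WT livers, and neither the count nor the median describes all 22. Cyp2b10, a drug-metabolizing enzyme, rose from 6.16 ± 1.62 to 35.3 ± 16.3 CPM (log2 fold change 2.504, adjusted p = 0.00703), and was not called without WT replicate 2 (adjusted p = 0.0546). Nipal1, a putative magnesium transporter, rose from 7.23 ± 2.15 to 23.8 ± 7.53 CPM (log2 fold change 1.71, adjusted p = 0.0108), and was not called without WT replicate 3 (adjusted p = 0.0562). Cyp2a4, a steroid hydroxylase, was at 3.67, 4.34 and 61.5 CPM in CgA-KO and at 0.339 to 0.537 CPM in WT (log2 fold change 5.83, adjusted p = 0.0189), and the log2 fold change was 3.31 without CgA-KO replicate 3. It was not called without WT replicate 1, 2 or 3 (adjusted p = 0.109, 0.167 and 0.169). Cyp2a4 did not reach the filter's level in every WT library and passed through CgA-KO, so its direction was largely set by passing the filter. Without WT replicate 2 the count of female-biased genes called was 3, without WT replicate 3 it was 2, and without CgA-KO replicate 3 it was 9. Hsd3b5, Cyp2a4 and Cyp2b10 have close paralogs among which reads may have been split.

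The livers of one genotype were not alike in this pattern. CgA-KO replicate 3, which had the lowest Cux2 of its genotype, was also low in several female-biased genes. Cyp2b9, a cytochrome P450 singled out after its values were seen, was at 6.34 to 9.05 CPM in WT. It was at 3.18 CPM in CgA-KO replicate 3, below every WT liver, and at 40.4 and 65.0 CPM in the others. Of the 15 female-biased genes tested, 8 (53.3%) ordered the CgA-KO livers as Cux2 did, replicate 2 highest and replicate 3 lowest, and 0 had the reverse order. Among all genes tested 20.1% had the first order and 18.7% the second. Among the 18 male-biased genes 1 had the order of Cux2 and 5 (27.8%) its reverse. This is a description of 3 livers. Cyp2a4 went against it, being highest in CgA-KO replicate 3.

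**Figure D4:**
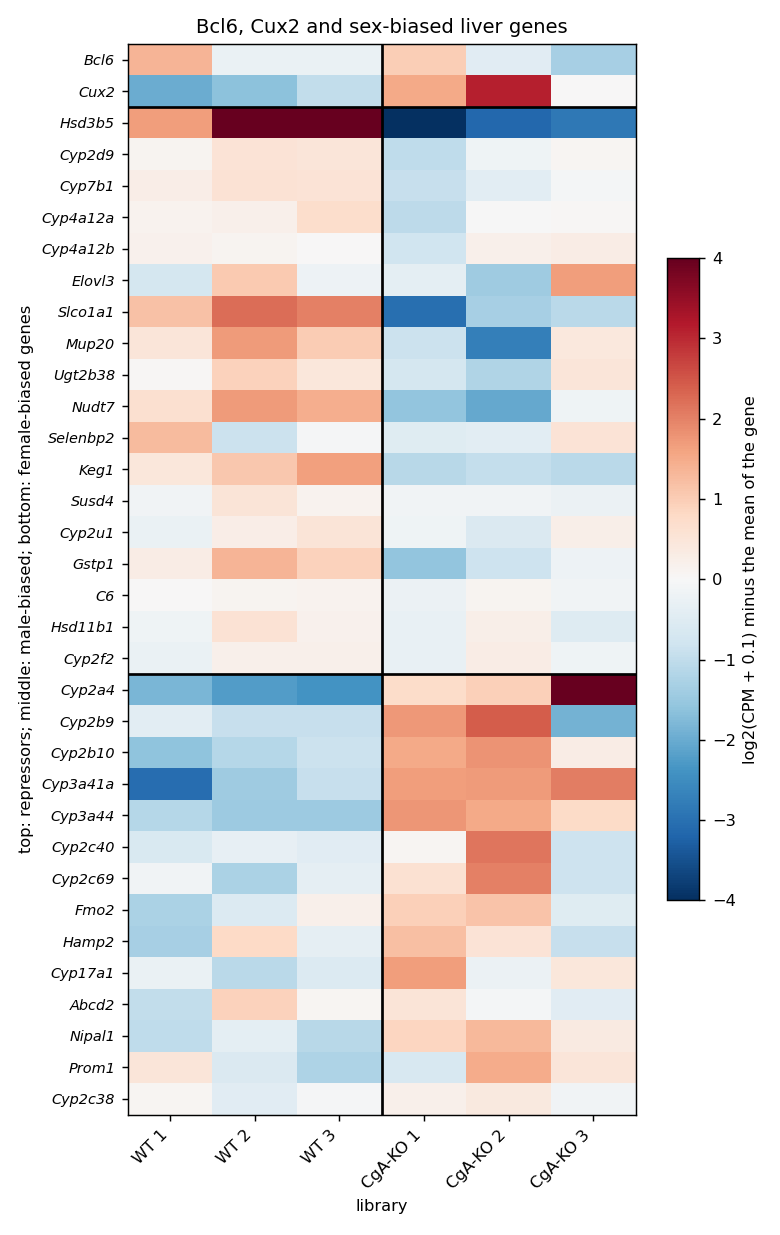
Heat map of log2(CPM + 0.1), centred on the mean of each gene, for Bcl6, Cux2, the 18 male-biased and 14 of the tested female-biased genes (lines) in the 6 libraries (columns), with colours limited at 4 on the log2 scale. Cux2 and the female-biased gene Cyp2b9 are highest in CgA-KO replicates 1 and 2, and Bcl6 is highest in replicate 1 of each genotype.

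The genes whose profile over the 6 libraries came nearest to 4 of the axis genes were found among 12716 other genes, by the root mean square difference of centred log2 CPM. For Igf1 they were Hsd17b13 (0.0308, where the median gene was at 0.378), Mvb12a and Cdc37. For Socs2 they were Trib3 (0.230, median 0.807), Atoh8 and Steap3. For Bcl6 they were Slc17a8 (0.288, median 0.979), Fam228b and Mcmdc2. For Cux2 they were Il18rap (0.228, median 1.83), Lef1 and Skap1, all 3 of them known from lymphocytes. Their WT means were 0.445, 0.215 and 0.245 CPM, so they met the minimum mean of 1 CPM for this comparison through CgA-KO. Centring over all 6 libraries keeps the genotype difference in each profile, and the part of lymphocytes in the Cux2 values was not tested. All of these profiles share the same 6 libraries, and with so few many genes come close.

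Per length, the genes differed widely in level. CPM was divided by the length of the longest coding transcript in GENCODE M21, in kilobases. Ghr (104 ± 22.8 CPM per kilobase in WT) and Igf1 (69.3 ± 10.9) stood at the top in WT, beyond their spread, and in CgA-KO their order was exchanged, at 61.06 ± 3.199 and 65.6 ± 10.97, within the spread. Igfals followed at 24.1 ± 5.37 in WT and 14.2 ± 5.89 in CgA-KO, where Socs2 (17.8 ± 8.53) had the higher mean within the spread. Socs2 (10.05 ± 4.999 in WT), Prlr (8.12 ± 1.31), Cish (6.91 ± 4.30), Stat5b (6.65 ± 0.392) and Bcl6 (6.10 ± 4.31) were neighbours that did not differ beyond their spread. Stat5a had a lower mean, 2.81 ± 0.527, which was within the spread of Cish and Bcl6 and below that of Socs2, Prlr and Stat5b. Cux2 was lowest in WT, at 0.209 ± 0.0809 per kilobase. In CgA-KO its mean was also the lowest, at 2.53 ± 2.42, but within the spread, since CgA-KO replicate 2 held 5.24, above Cish, Stat5a and Bcl6 in the same library. The exchange of Ghr and Igf1 depends on the transcript lengths used. In CPM alone, Igf1 had the higher mean in both genotypes. It was at 489 against 435 for Ghr in WT, within the spread, and at 463 against 255 in CgA-KO.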

How the data were processed

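RNA of 3 WT and 3 CgA-KO livers was used as deposited by the authors, in one table of whole-number counts per gene symbol, not scaled for library size. The authors ran Salmon 1.4.0 on transcripts of GRCm38, and the step from transcript estimates to gene counts is not given in the sources used here. All columns were mapped to a sample, leaving 0. Symbols on 78 rows repeat an earlier row.

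The whole table was fitted with edgeR 4.0.16 in R 4.3.3, using filterByExpr (minimum count 10), TMM factors and a robust quasi-likelihood test of genotype. P-values were adjusted by the Benjamini-Hochberg method over all 13867 genes tested. Standard errors were taken as the log2 fold change over the square root of F, an approximation. The lists hold known genes of the pathway, sex-biased liver genes, clock genes and cell markers, and members and lists were chosen with earlier results of these data known. Named besides the 10 genes were every called pathway gene and factor, 11 fixed pathway genes, the 3 called sex-biased genes per list with the largest fold change, at least 5 CPM and no overlap, and the 3 nearest profiles. Alternatives were DESeq2 1.42.0, limma-voom (limma 3.58.1), other scalings and filters, a replicate block and leaving out each library. A few genes that the rule names are not reported here, but remain in the counts. The fit was tested on simulated data. The labels give 3 mice per genotype, and p-values measure only the spread between these libraries. Figures were drawn with matplotlib 3.10.9.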

Additional observations from a re-analysis of the deposited data

How the results depend on the processing

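With 3 livers per genotype an exact test cannot go under p = 0.1. Of the 10 axis genes, DESeq2 called 2, library size alone 2, and limma-voom and a total of at least 1 count 0 each, with 4 and 5 at an unadjusted p under 0.05. With each library left out, the count was 0 to 2. These fits gave 0 to 5 signalling partners, 1 to 2 genes of the IGF system, 3 to 8 male-biased and 2 to 9 female-biased genes, and 394 to 2126 of all genes. DESeq2 called 2592 of all genes. The filter on a total of at least 1 count left 1 gene of the IGF system, and at least 10 counts in every library left 2 female-biased genes. Signs changed for Cish (-0.95 to 0.14 with a library left out), Igf1 (-0.17 to 0.065, and 0.21 with library size alone), Bcl6 (-1.29 to 0.34), Igfbp2 (-0.17 to 0.70), Hnf4a (-0.13 to 0.18, -0.014 with DESeq2 and -0.010 with size factors of the RLE type) and the log2 ratio of Stat5b to Stat5a (-0.0041 to 0.34). None of these was called, and the cause was not tested. Among the values of single named genes and of ratios under the alternatives, 393 were stable, 59 lost a call and 6 gained one. DESeq2 gave Cyp2a4 no adjusted p. For a gene, stable means the same direction and side of the threshold. For a ratio, which has no call, it means the same direction and a move under the pooled SD of its log2 values. Libraries with the same replicate number share only that number: their deviations correlated at 0.199, 0.0127 and -0.0659, and not every library correlated best with its own number. With the replicate block, 1 axis gene, 4 signalling partners, 2 genes of the IGF system and 1498 of all genes were called, the last against 1726 without it, and Socs3 and Grb2 were among the genes that lost their call.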
